A study of Rattus norvegicus with 4 samples.

Results

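The genes described here are 10 genes of actomyosin contraction: Mylk, which encodes the myosin light chain kinase, and 9 genes for the proteins it acts on or with, Myl9, Acta2, Tagln, Cnn1, Tpm1, Tpm2, Myh9, Myh10 and Rock1. They were chosen by the measured signal of Mylk, whose difference was among the largest in oligodendrocyte precursor cells (OPCs) after silencing of Gpr17 on these same arrays, and by the known place of the other genes in contraction. Values of the 10 genes in that contrast are therefore a description and carry no test. Of the 10 genes, 9 had a probe that could be matched by its transcript accession, out of 16575 named genes on the array, and 8 were among the 11652 genes bright enough to be tested. Rock1 was not matched and has no value here.

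The study asked which genes change when the receptor GPR17, which is switched on and off again as OPCs mature, is silenced. OPCs were isolated from the cortex of rats at postnatal day 2, expanded for 3 days with bFGF and PDGF and moved to a differentiating medium with thyroid hormone. The siGPR17 cells received 50 nM of a pool of siRNAs against rat Gpr17 and the siNEG cells the same dose of a non-targeting pool, both with Lipofectamine RNAiMax. RNA was taken 48 h later, at day in differentiation 2, and 2 samples of each group were hybridised to 1 one-colour Agilent array each. The labels call the samples of a group independent and do not say whether they came from separate cultures or animals. The paper's methods state that cortices of Sprague-Dawley rats were pooled to obtain OPCs. P-values therefore measure only the spread between these samples. The 4 arrays shared 1 slide and 1 scan. Each group filled a slide column of its own, so that slide column and treatment cannot be told apart.

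As background, contraction of non-muscle cells rests on myosin II sliding along actin filaments. Calcium signals activate the myosin light chain kinase, which phosphorylates the regulatory light chains and switches the myosin on, while a phosphatase made of a catalytic and a myosin-targeting subunit removes the phosphate. The kinases ROCK1 and ROCK2 hold that phosphatase back. Tropomyosins, calponins and transgelins lie along the filament and set which proteins can bind it. In the oligodendrocyte lineage, myosin II activity is known to restrain branching and myelination. Many of the smooth muscle genes among these are driven by serum response factor (SRF) with its MRTF partners, and several also mark pericytes, smooth muscle cells and fibroblasts.

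The target of the siRNA was read first. Gpr17 had a normalized signal of 1108 and 1114 on the siNEG arrays and of 652.8 and 639.9 on the siGPR17 arrays, where a normalized signal is the background-corrected brightness of a probe divided by the 75th percentile of its array and multiplied by 1 factor common to all arrays. Both siGPR17 arrays lay below both siNEG arrays. The log2 difference, siGPR17 minus siNEG, was -0.78 with a standard error of 0.085, and limma gave it an adjusted p of 0.209 after Benjamini-Hochberg correction over all tested probes. With 2 arrays against 2, an exact two-sided permutation test cannot give a p under 0.333, and the number of arrays limits the precision of every value given here.

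Mylk, the kinase that switches on smooth muscle and non-muscle myosin II, had a normalized signal of 24.2 and 20.6 on the siNEG arrays and of 67.2 and 74.4 on the siGPR17 arrays. The siGPR17 arrays were the 2 brighter ones, and since this difference chose the gene, the gap between the groups is a description only. The group means were 22.4 ± 2.54 (SD, n = 2) for siNEG and 70.8 ± 5.03 (SD, n = 2) for siGPR17, a 3.17-fold difference and a log2 difference of 1.66. By that difference Mylk stood at place 12 among the 11652 tested genes, counted from the largest positive difference. The signal was dim, although it was well above background on all 4 arrays. Before any correction, the median pixel of its single spot read 67.0 and 65.0 intensity units in siNEG and 107.5 and 108.0 in siGPR17, over a local background of 44.0, 46.0, 47.0 and 47.0 units on the same arrays. The size of the difference therefore rests on how the background is removed: with normexp background correction and an offset of 50 units, which is more than the 23.0 and 19.0 units by which the siNEG spots stood above their background, the log2 difference was 0.64. Leaving out each array in turn gave 1.55 to 1.78. The Mylk gene gives rise to a long and a short kinase and to telokin, a small protein without kinase activity, and the 1 probe, A_64_P154922, does not tell which of them was measured.

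Mylk2, the skeletal muscle kinase, had signals of 26.03 and 21.67 in siNEG and of 24.9 and 27.5 in siGPR17 OPCs, and its groups overlapped. Mylk3, the cardiac kinase, had 30.7 and 41.2 in siNEG and 49.2 and 42.7 in siGPR17 OPCs, with a log2 difference of 0.37 (adjusted p = 0.391 in limma; 0.19 with normexp). Neither was near the difference of Mylk on the log2 scale, although the difference between these kinases was not tested. On the other side of the cycle, Ppp1cb, the catalytic subunit of the myosin phosphatase, had a log2 difference of -0.27 (adjusted p = 0.308 in limma). Ppp1r12a, its myosin-targeting subunit, had -0.22 on its brightest probe and 0.15 on a dimmer one, so that its probes disagreed in sign. The brightest probe ran from -0.40 to -0.03 as single arrays were left out. For Rock2, the partner of the unmatched Rock1, both tested probes gave a log2 difference of 0.02. None of these phosphatase and Rock2 differences passed the thresholds in limma, and these genes were named for their role after their values had been seen.

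The myosin II chains themselves differed little. Myl9, a regulatory light chain and a substrate of the kinase, had signals of 312.4 and 280.7 in siNEG and of 254.6 and 282.1 in siGPR17 OPCs. The groups overlapped, since 1 siGPR17 array lay above the lower siNEG array. Myh9, the heavy chain of myosin IIA, had 6990.2 and 8779 in siNEG and 6763 and 6654 in siGPR17 OPCs. Its siGPR17 arrays lay just below the lower siNEG array, and the log2 difference of -0.22 ran from -0.39 to -0.06 as single arrays were left out. A second, dimmer probe of Myh9 gave 0.01 with overlapping groups, so the 2 probes disagreed. Myh10, the heavy chain of myosin IIB, had 1712 and 1569 in siNEG and 1456 and 1445 in siGPR17 OPCs, a log2 difference of -0.18 with no overlap. It was -0.05 with scaling on spike-in controls.

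Acta2, smooth muscle alpha actin, had signals of 53.7 and 45.2 in siNEG and of 60.7 and 58.2 in siGPR17 OPCs. The groups did not overlap, with a log2 difference of 0.27 that ran from 0.15 to 0.39 as single arrays were left out. By representing probe, only Acta2 and Mylk of the 9 members with a value were higher in siGPR17 OPCs under every alternative run for them. Tpm1, a tropomyosin that many cell types use, was measured by 4 probes. Its brightest probe had 6264 and 6339.5 in siNEG and 5975 and 5906 in siGPR17 OPCs, a log2 difference of -0.09 that turned to 0.04 with spike-in scaling. The other 3 probes gave -0.26, -0.08 and -0.02, each with the siGPR17 mean below the siNEG mean.

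Tpm2, Tagln and Cnn1 were lower in siGPR17 OPCs, all at dim signals, and were grouped here by that direction. They mark differentiated smooth muscle, but so do Acta2, which was higher, and Myh11 and Smtn, whose groups overlapped, so the smooth muscle genes had no common direction. Tagln, the actin-binding protein transgelin, had 67.4 and 76.1 in siNEG and 32.5 and 43.4 in siGPR17 OPCs. Both siGPR17 arrays lay below both siNEG arrays, the means were 71.8 ± 6.13 (SD, n = 2) and 38.0 ± 7.73 (SD, n = 2), and the log2 difference was -0.93, or -0.32 with normexp. The brightest probe of Tpm2, the beta tropomyosin, had 27.1 and 18.3 in siNEG and 13.6 and 5.56 in siGPR17 OPCs and was not well above background on either siGPR17 array. With every array kept it was at least 2.23-fold lower there. This bound sets the siNEG mean against, on each dim array, the larger of the probe's own signal and the lowest signal well above background. The bound was 1.83-fold without siNEG replicate 1 and 2.71-fold without siNEG replicate 2. The measured log2 difference was -0.72 without siGPR17 replicate 2 and -2.01 without siGPR17 replicate 1, so the size rests on single dim arrays. Since this probe passed the filter on dim probes only through the siNEG arrays, where it is high, its passing is tied to the difference. Of the other 2 probes of Tpm2, 1 was well above background on 1 siNEG array, with overlapping groups and a bound of 1.21-fold, and the other on none. Cnn1, calponin 1, had 15.0 and 24.4 in siNEG and 7.49 and 12.04 in siGPR17 OPCs and was well above background on 1 siNEG array and no siGPR17 array. It was not tested. The same kind of bound gave a signal at least 1.505-fold lower in siGPR17 OPCs, but 1.18-fold without siNEG replicate 2, the 1 array on which Cnn1 was well above background, and the measured log2 difference ran from -1.36 to -0.66 as single arrays were left out. With normexp the log2 differences of Tpm2 and Cnn1 were -0.21 and -0.15.

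**Figure D1:**
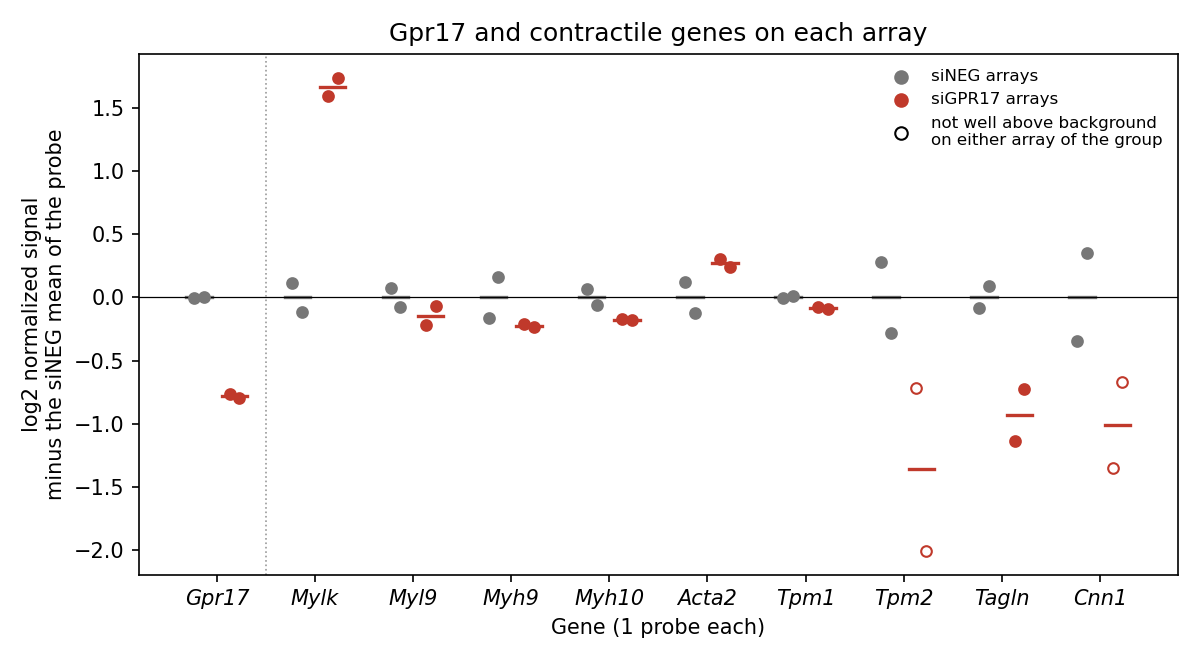
Log2 normalized signal of 1 probe per gene on each array, minus the mean of the 2 siNEG arrays for that probe (vertical axis, log2 units), for Gpr17 and the 9 members with a value (horizontal axis). Points are arrays, short lines are group means, and open points mark groups in which neither array was well above background; Mylk lies 1.66 above the siNEG mean, Tagln 0.93 below it, and Myl9 overlaps between the groups.

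Among the 8 tested members, groups did not overlap for 2 genes that were higher in siGPR17 OPCs and 5 that were lower, where 28.1% of all 11652 tested genes were higher and 25.3% lower without overlap. A fold difference of 1.5 was met by 1 member upward and 2 downward, against 2.43% and 2.65% of all genes. Because the members were chosen with this contrast in view, nothing is read from these counts. Past both thresholds, a fold of 1.5 and an adjusted p under 0.07, limma placed 1 of 28016 tested probes (0.00357%), which has no gene symbol, and 0 of the 11652 genes (0%). The median log2 difference of the 8 tested members was -0.16, beside 0.01 over all tested genes. Setting Tpm2 at its bound cannot change this median, since Tpm2 stays the lowest of the 8.

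The wider pathway was described through 8 lists of genes, among them lists for myosin II, its kinases and phosphatase, actins, tropomyosins, calponins and crosslinkers, adhesion proteins and SRF targets. Apart from the members they hold 94 genes, of which 75 were tested. In limma 0 of the 75 passed the thresholds, and 0 passed with the trend and robust options, normexp or the methods' t-test. At an unadjusted p under 0.05 limma gave 2 of 75 higher and 7 lower in siGPR17 OPCs, where 7.43% of all tested genes were higher and 8.74% lower. In this main setting the share was below the background for higher genes and near it for lower ones. These 9 genes, where the share over all genes in both directions was 16.2%, became 21 without siNEG replicate 1, where that share was 22.9%. They were 2 without siGPR17 replicate 1 and 3 without siGPR17 replicate 2, with 6.58% and 6.07% of all genes. Groups did not overlap for 16 of the 75 genes that were higher and 26 that were lower, beside 28.1% and 25.3% of all genes. With scaling on spike-in controls, which moved the median of all tested genes by 0.13 on the log2 scale, these were 28 and 14, beside 50.1% and 13.4% of all genes. Without siNEG replicate 2 the higher genes numbered 27 and without siNEG replicate 1 the lower ones 45, in comparisons of 2 arrays with 1 where 47.7% and 45.8% of all genes did so. The median log2 difference of the 75 genes was -0.06, and with spike-in scaling it was 0.07 where that of all genes was 0.14.

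The adhesion proteins that sit on stress fibres had the lowest median of the 8 lists in the main setting, -0.28 over 13 tested genes, and 10 of the 13 had a lower mean in siGPR17 OPCs. The median of this list was also below 0 with quantile, detected-median and spike-in scaling and with normexp (-0.15 with spike-in scaling). Groups did not overlap for 8 of these genes that were lower and 2 that were higher, beside 25.3% and 28.1% of all genes. With spike-in scaling these were 5 lower and 3 higher, beside 13.4% and 50.1% of all genes. In the main setting 5 of the 13 had an unadjusted p under 0.05, all of them lower, beside 8.74% of all genes. These 5 became 1 without siGPR17 replicate 1, 2 without siGPR17 replicate 2 and 2 with spike-in scaling, beside 3.62%, 3.49% and 3.78% of all genes. Lpp, a zyxin relative of focal adhesions, had signals of 109.4 and 129.6 in siNEG and of 60.8 and 77.5 in siGPR17 OPCs. Its log2 difference was -0.79 (adjusted p = 0.215 in limma, both arrays lower), and a second probe gave -0.74. The other 4 of the 5, named after their values were seen, were Vcl, which encodes vinculin, at -0.42, Pdlim5 at -0.47, Vasp at -0.37 and Fhl1 at -0.29. A second probe of Pdlim5 gave -0.30, and one of Vasp gave -0.42 with overlapping groups. With normexp the log2 differences of Lpp, Pdlim5 and Vcl were -0.30, -0.18 and -0.25. Fhl2, a LIM protein and known SRF target, had 187.0 and 61.2 in siNEG and 53.0 and 59.4 in siGPR17 OPCs. Its log2 difference of -0.93 rested on 1 array, since it was -0.13 without siNEG replicate 1, and it was -0.29 with normexp.

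In the other lists shown the differences of most genes were small. The 4 tested actins had a median of 0.20, or 0.13 without the member Acta2, with Actc1, cardiac actin, at 0.35 and Actb, beta actin, at 0.06. Acta1 and Actg2, the skeletal and the enteric smooth muscle actin, were not tested. Among the 5 tested myosin chains that are not members, Myl6, an essential light chain, had the highest difference, 0.27, and Myl12b, a regulatory light chain, the lowest, -0.29. Myh11, the smooth muscle heavy chain, had 96.4 and 79.1 in siNEG and 77.0 and 84.0 in siGPR17 OPCs, with overlapping groups. Tagln3, the neuronal relative of Tagln, was the 1 non-member of the calponin list with an unadjusted p under 0.05, at -0.57 (-0.20 with normexp), while Tagln2 had 0.35 (0.16 with normexp) and Cnn3, the calponin of non-muscle cells, had -0.10. Without the members, the medians of the myosin, tropomyosin and calponin lists were -0.06, -0.02 and -0.10, and with spike-in scaling they were 0.06, 0.11 and 0.03. The 16 tested genes of the kinase and phosphatase list other than Mylk had a median of 0.01, with 3 higher and 4 lower without overlap, beside 28.1% and 25.3% of all genes. Srf itself had a log2 difference of -0.18. Of the 4 tested genes of its list Amotl2 was highest at -0.13 and Tgfb1i1 lowest at -0.43 (-0.02 with normexp), both with overlapping groups. Tgfb1i1 ran from -0.80 to -0.05 as single arrays were left out, so its place as the lowest rests on single arrays. Ccn1, a target of SRF and of YAP, had -0.33 (adjusted p = 0.244 in limma), or -0.12 with normexp.

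**Figure D2:**
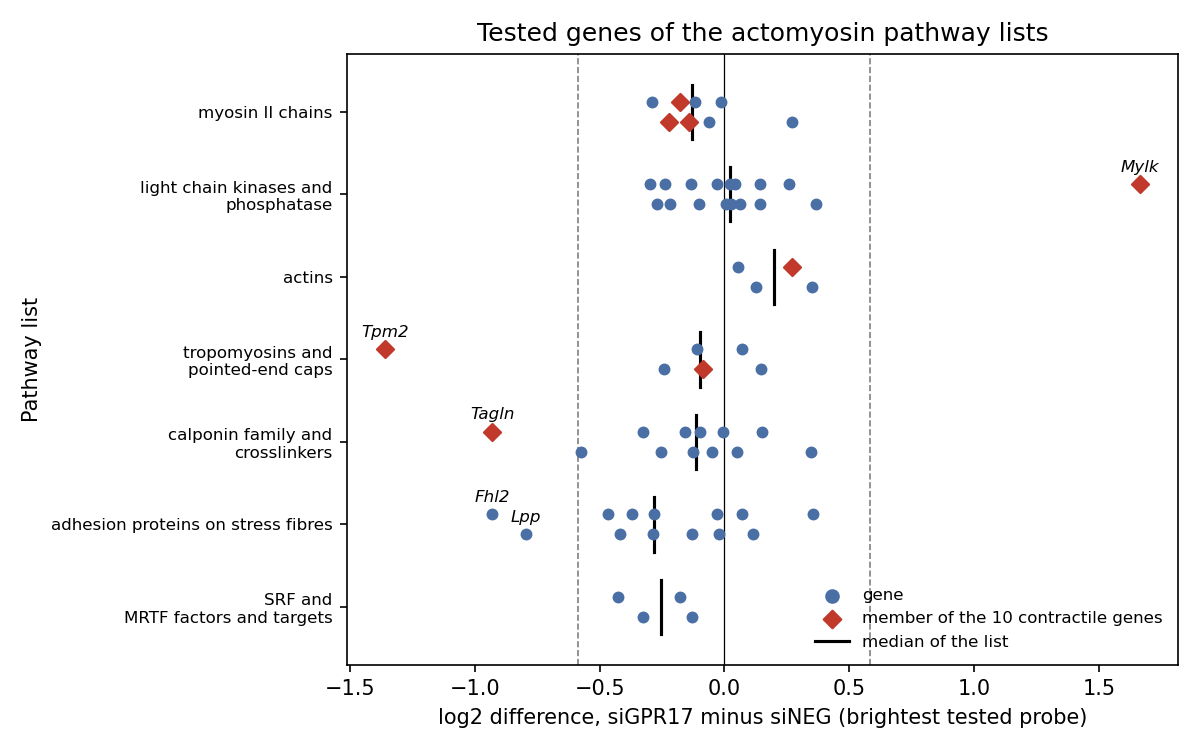
Log2 difference in signal, siGPR17 minus siNEG (horizontal axis), of the tested genes in 7 of the 8 pathway lists (vertical axis), each gene by its brightest tested probe. Red diamonds are members, blue points other genes, black lines list medians and dashed lines a fold of 1.5; Mylk at 1.66 stands far to the right, and the value of Tpm2 is drawn as measured although its siGPR17 arrays were not well above background.

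The profile of Mylk over the 4 arrays was set against that of every other tested gene, as the root mean square distance between log2 values centred on each gene's mean. The 5 nearest genes were Defb20, a beta defensin, at a distance of 0.066, Ptprv, a receptor-type tyrosine phosphatase, at 0.11, Pgf, placental growth factor, at 0.12, Mgmt, a DNA repair enzyme, at 0.13 and Cdkn1a, the cell cycle inhibitor p21, at 0.13. All 5 were well above background on the 4 arrays, and their log2 differences ran from 1.52 to 1.74. With normexp these differences ran from 1.22 to 1.64, while that of Mylk was 0.64, so the likeness in size is that of the main setting. Cdkn1a, for example, had signals of 4128 and 4350.3 in siNEG and of 11307 and 13135 in siGPR17 OPCs. None of these 5 genes is in the pathway lists. With 4 arrays in 2 groups, the measure holds little beyond the group difference.

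Because the members differed in direction, the sequence before the transcription start is shown for 4 of them, picked as examples after their values were seen, with Mylk and Acta2 higher and Tpm2 and Cnn1 lower in siGPR17 OPCs. RefSeq starts of the assembly GRCr8 were matched for 8 of the 10 members, with 9 windows in all, and the 250 bases before each start were searched on both strands for the CArG box that SRF binds, for CATTCC, the core bound by TEAD factors, for TGAGTCA, which AP-1 binds, and for GGGCGG, the core bound by SP1. These motifs were chosen after the promoters had been seen. The CArG box in its strict form, a pair of C, a run of A or T and a pair of G, was in 0 of the 9 windows and in 1.497% of all 33469 windows of the same length. With up to 1 letter off, as in known SRF sites of smooth muscle genes, it was in 2 of the 9, with 2 matches each in Acta2 and Tpm1, and in 18.7% of all windows. CATTCC was in 4 of the 9, those of Acta2, Myh10, Mylk and Tpm1, and in 12.1% of all windows, TGAGTCA in 2, for Mylk and for 1 start of Myh9, and in 4.05%, and GGGCGG in 5 and in 30.5%. The windows printed are Mylk (chr11:79498575-79498824, minus strand), Acta2 (chr1:241172504-241172753, minus strand), Tpm2 (chr5:62575727-62575976, minus strand) and Cnn1 (chr8:28908187-28908436, plus strand), read 5′ to 3′ with every exact match in capitals.
Mylk: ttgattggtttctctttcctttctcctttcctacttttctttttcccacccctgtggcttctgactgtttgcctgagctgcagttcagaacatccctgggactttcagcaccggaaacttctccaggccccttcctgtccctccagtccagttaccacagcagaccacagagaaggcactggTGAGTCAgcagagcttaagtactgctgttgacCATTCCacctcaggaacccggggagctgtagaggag
Acta2: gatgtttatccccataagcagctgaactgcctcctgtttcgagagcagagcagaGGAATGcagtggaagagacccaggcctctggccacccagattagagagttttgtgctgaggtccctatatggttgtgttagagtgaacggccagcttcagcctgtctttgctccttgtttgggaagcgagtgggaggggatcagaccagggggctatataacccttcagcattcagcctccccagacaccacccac
Tpm2: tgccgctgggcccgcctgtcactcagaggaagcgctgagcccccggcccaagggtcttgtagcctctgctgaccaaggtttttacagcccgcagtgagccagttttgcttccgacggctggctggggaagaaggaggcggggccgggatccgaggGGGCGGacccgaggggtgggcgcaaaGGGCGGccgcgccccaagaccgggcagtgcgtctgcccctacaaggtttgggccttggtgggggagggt
Cnn1: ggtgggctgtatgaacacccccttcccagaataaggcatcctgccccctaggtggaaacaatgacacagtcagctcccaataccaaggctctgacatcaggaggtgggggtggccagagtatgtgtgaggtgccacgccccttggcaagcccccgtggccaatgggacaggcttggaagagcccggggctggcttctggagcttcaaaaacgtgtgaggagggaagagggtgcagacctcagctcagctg
In Mylk, TGAGTCA begins 68 and CATTCC 36 bases before the start, and in Acta2 the reverse complement of CATTCC begins 196 bases before it. Tpm2 has GGGCGG 95 and 69 bases before its start, and Cnn1 has none of the motifs in exact form. A match says only that the letters are there, and no match only that they are not in the window.

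Since Acta2, Tagln, Cnn1 and Tpm2 are also abundant in mural cells and fibroblasts, marker lists of these cells were read beside them. In such bulk samples fewer cells of a type and less RNA per cell cannot be told apart, and the part of other cells in the values of the members was not tested. Of 9 pericyte markers 6 were not well above background on any array, namely Pdgfrb, Rgs5, Kcnj8, Abcc9, Vtn and Higd1b. The summed signal of this list was 252.7 and 186.1 in siNEG and 254.3 and 253.4 in siGPR17 OPCs, and its brightest gene was Anpep, with a log2 difference of 0.65. The other 2 tested genes of the list, Notch3 at -0.31 and Des at 0.31, had overlapping groups, so the list had no common direction. Of 11 smooth muscle markers, which include Acta2, Tagln and Cnn1, 6 were not well above background on any array, Lmod1, Actg2, Myocd, Synpo2, Casq2 and Pln. The sums were 873.8 and 925.7 in siNEG and 793.4 and 876.7 in siGPR17 OPCs, overlapping between the groups, with Smtn brightest. Of 10 fibroblast markers Dcn, Lum, Thy1 and Postn were not well above background on any array, the sums were 906.1 and 765.2 in siNEG and 909.7 and 895.2 in siGPR17 OPCs, and Fbln1 was brightest. The endothelial list, with Pecam1, Cldn5 and Emcn not above background among its 8 genes, had higher sums in siGPR17 OPCs, 1359 and 1269.8 against 1035 and 903.0, and its brightest gene, Vwf, had a log2 difference of 0.48.

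The labelled cell type was also read from its markers, whose sums mostly show the brightest genes. Counts of markers without overlap are to be read beside the 28.1% of all tested genes that were higher and the 25.3% that were lower without overlap. All 4 tested lineage markers were well above background on every array, with sums of 165906 and 205324 in siNEG and of 167769 and 170543 in siGPR17 OPCs and Olig2 brightest. The 8 tested precursor markers summed to 81456 and 84396 in siNEG and to 66973 and 63507 in siGPR17 OPCs, with Vcan brightest and 7 of the 8 lower without overlap. Markers of newly formed oligodendrocytes, Gpr17 among them, summed to 100610 and 104474 in siNEG and to 106419 and 103985 in siGPR17 OPCs, and Bcas1 was brightest. Those of mature oligodendrocytes summed to 301097 and 338192 in siNEG and to 355720 and 370116 in siGPR17 OPCs, with Mbp brightest, 3 of 7 tested genes higher and 4 lower without overlap, and Ermn not above background on any array. Markers of astrocytes, neurons and microglia had signal too, and which cells this signal came from was not tested. The 8 astrocyte markers summed to 117412 and 132405 in siNEG and to 120816 and 122074 in siGPR17 OPCs with Aldoc brightest, which made up most of the sum and had overlapping groups. Of the other 7, 4 were lower without overlap, Aqp4 (-1.35, or -0.84 with normexp), Gfap (-0.61), Slc1a3 (-0.37) and Slc1a2 (-0.22, or -0.06 with normexp), and S100b was higher (0.50). The 8 neuron markers summed to 25081 and 26477 in siNEG and to 23533 and 22902 in siGPR17 OPCs with Gap43 brightest and 6 lower without overlap. The 9 microglia markers summed to 3860.0 and 2603 in siNEG and to 2603 and 3070.4 in siGPR17 OPCs, Cx3cr1 was brightest, 3 of 7 tested genes were lower without overlap, and Csf1r and Ptprc were not well above background on any array.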

How the data were processed

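Total RNA of 4 OPC samples, 2 siNEG and 2 siGPR17, was labelled with Cy3 and hybridised to Agilent rat arrays with 58717 non-control spots for 45598 probes. The authors deposited spot intensity as given by Agilent Feature Extraction 10.7.3.1, named in the submitters' processing notes, which corrects for background and does not normalize between arrays. Groups and replicates were taken from the labels.

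Here log2 processed intensity minus the 75th percentile of each array (564.9 to 624.1 intensity units) was used, without control and outlier-flag spots, with spots of a probe averaged. No non-control spot was saturated. Between 26997 and 28244 probes per array were well above background, and the 28016 of 45565 probes that were so on at least 2 of 4 arrays were tested with limma 3.58.1 (lmFit and eBayes, R 4.3.3; tables with Python 3.11.15, pandas 2.3.3, NumPy 2.4.6 and Matplotlib 3.10.9) and Benjamini-Hochberg adjustment. The fold and adjusted p thresholds are those of the study's methods. Those methods name no test for the arrays. The unpaired t-test run here as an alternative is the one they give in general for comparing 2 groups. The code was tested on simulated data. Probes were named by accession, without version, through a RefSeq gene table of GRCr8, used for names only (21102 probes matched). A gene is represented by its brightest tested probe. Alternatives covered background correction, scaling, the filter on dim probes, the spread model and the unpaired t-test. They also covered the replicate number as a block, single arrays left out and the mean of a gene's probes.

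The members and lists were chosen with earlier results of these data known. Named by rule were all members, Gpr17, in each pathway list the genes with a fold of 1.5 and no overlap or otherwise the highest and the lowest, the brightest and the undetected genes of the 11 marker lists, and the 5 genes most like Mylk. Other genes were named for their role or direction after their values were seen. The results of 1 pathway list and of single genes of the lists are not reported here.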

Additional observations from a re-analysis of the deposited data

How the results depend on the processing

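Of the 28016 tested probes, 1 passed the thresholds. Normexp gave 242 and the trend and robust options 420. The count was 0 with spike-in scaling, no filter, the filter on all 4 arrays and the unpaired t-test. That t-test gave 1675 genes at an unadjusted p under 0.05. With the replicate number as a block the count of probes was 0. Replicate differences of the groups correlated with r = -0.065 across probes. A single correlation cannot tell whether samples with the same replicate number share an origin. The labels give only that number, and no pair was formed in the main setting. Without single arrays the count was 0 to 0. The count of members past the thresholds was 0 in the main setting and 1 under normexp and under trend and robust estimation. Over all tested genes 0%, 0.961% and 1.58% passed in these settings. The count of members is no test, since this contrast chose them. The log2 difference of Mylk was 0.64 with normexp, where the added offset of 50 units compresses dim signals by construction, and stayed between 1.55 and 1.79 otherwise. No other pathway gene passed under any alternative run, beside 0.961% and 1.58% of all genes under normexp and under trend and robust estimation. Without overlap, 16 other pathway genes were higher and 26 lower, beside 28.1% and 25.3% of all genes, and with spike-in scaling 28 and 14, where 50.1% and 13.4% of all genes did so. Leaving out single arrays gave 18 to 27 higher and 30 to 45 lower, where 36.2% to 47.7% of all genes were higher and 32.3% to 45.8% lower. The median of the members stayed below 0, between -0.19 and -0.03. Of 9 members with a value, 1 changed sign in any alternative, Tpm1, with spike-in scaling (0.04), and of 75 other pathway genes 17 did so with that scaling. With normexp the log2 differences of Mylk, Tagln, Tpm2 and Cnn1, all dim, moved most among the members. Acta2, also dim, moved from 0.27 to 0.20.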
